A study of Mus musculus with 6 samples.

Results

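The genes described here are 39 mouse genes of mitosis: kinases, kinesins, checkpoint proteins and the factors that separate chromosomes and daughter cells. They were taken as a listed set of gene symbols and sorted into 9 classes by what their proteins do. All 39 were among the 53801 genes counted, and all 39 passed the filter on low counts, which kept 15143 genes. The cells were ciCPCs, chemically induced cardiovascular progenitor cells made from mouse fibroblasts, wild type, from mice of mixed C57BL/6 and 129J/SvE stock. Colonies were picked at day 14 of the reprogramming and grown on through passages in a medium with BMP4, Activin A, CHIR99021 (an inhibitor of the kinase GSK3) and SU5402 (an inhibitor of FGF receptors). RNA was sequenced at passage 3 (3 libraries) and at passage 20 (3 libraries), and both passages share the genotype and the medium. The design text gives the question as how the cells fare over long expansion.

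A dividing cell makes most of these proteins late in its cycle and destroys many of them as it leaves mitosis. Kinases such as Aurora A, Aurora B and PLK1 build the spindle and correct its attachments, kinesins move along its microtubules, and the checkpoint proteins hold back the anaphase-promoting complex until every chromosome is attached. That complex then marks securin and cyclin B for destruction, which frees separase to cut the cohesin that holds sister chromatids together. In bulk RNA, more cells in mitosis and more RNA per mitotic cell cannot be told apart.

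Total counts in genes were 13995799 to 17721788 per library at passage 3 and 11387738 to 13285419 at passage 20. The labels name no batch and do not say that replicates were separate cultures, so p-values measure the spread between these libraries, which may be technical. Passage 20 replicate 3 stood apart: a chi-square statistic per gene, which is near 1 for sampling noise alone, was 10.6 and 8.72 against the other passage 20 libraries, and 1.75 to 2.63 for every other pair within a passage. All 8 cardiac progenitor markers on the list were detected, with a summed level of 761 to 785 CPM (read counts per 1000000, TMM-normalised) at passage 3 and 641 to 709 at passage 20. Within that sum 4 markers rose and 4 fell. Isl1 fell 8.44-fold, and Pdgfra, the largest part of the passage 3 sum, fell 2.45-fold from 327 to 134 CPM. Nkx2-5 rose 4.57-fold from a low level, 1.15 to 5.23 CPM, and Mef2c rose 2.68-fold. Cardiomyocyte markers summed to 3.10 to 3.93 and 5.73 to 6.24 CPM. Of these, Tnnt2 and Myh7 rose. Myh6, which did not pass the filter on low counts, had 12 to 14 reads per library at passage 3 and 3 to 4 at passage 20. Endothelial markers summed to 11.3 to 13.3 and 9.23 to 10.1 CPM (Emcn at 0), where Pecam1 rose 1.67-fold and Vwf fell 4.83-fold. Blood markers summed to 7.27 to 8.47 and 8.14 to 10.97 CPM (Ptprc at 0). Fibroblast markers summed to 9603 to 10178 CPM at passage 3 and 18859 to 22739 at passage 20 (S100a4 at 0). Col1a1 and Col1a2 make up most of that sum, and Thy1 on the same list fell 2.30-fold (edgeR adjusted p = 7.1e-05). The part of these markers in the results was not tested.

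The promoters of such genes commonly carry a CHR element, the letters TTTGAA, which recruits the DREAM and MuvB complexes with B-Myb and FOXM1, and a CCAAT box, the letters of its name, which binds NF-Y. These 4 promoters are shown because they span the results: Top2a rose, Cdc20 did not pass the test, and Kif11 and Mad2l1 fell. Each is 250 bases up to the RefSeq start on GRCm38.p6, 5′ to 3′ on the gene's strand, with capitals marking each motif as it reads on the printed strand, whichever strand holds it.
Top2a, chr11:99024190-99024439, minus strand: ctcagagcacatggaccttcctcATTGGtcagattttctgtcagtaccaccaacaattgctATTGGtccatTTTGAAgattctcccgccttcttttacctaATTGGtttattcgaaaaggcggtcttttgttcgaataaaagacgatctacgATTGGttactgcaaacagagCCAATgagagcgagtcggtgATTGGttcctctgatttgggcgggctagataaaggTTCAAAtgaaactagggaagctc
Cdc20, chr4:118437344-118437593, minus strand: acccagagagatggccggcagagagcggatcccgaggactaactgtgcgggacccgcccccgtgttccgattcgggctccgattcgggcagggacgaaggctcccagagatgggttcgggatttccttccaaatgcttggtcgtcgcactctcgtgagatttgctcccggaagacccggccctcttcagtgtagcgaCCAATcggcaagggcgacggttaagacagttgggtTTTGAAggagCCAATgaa
Kif11, chr19:37376132-37376381, plus strand: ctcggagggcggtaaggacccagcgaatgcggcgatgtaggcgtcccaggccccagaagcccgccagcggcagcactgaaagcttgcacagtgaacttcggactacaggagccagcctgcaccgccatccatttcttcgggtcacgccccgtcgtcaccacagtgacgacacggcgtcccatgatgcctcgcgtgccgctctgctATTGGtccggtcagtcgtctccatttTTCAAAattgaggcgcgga
Mad2l1, chr6:66534971-66535220, plus strand: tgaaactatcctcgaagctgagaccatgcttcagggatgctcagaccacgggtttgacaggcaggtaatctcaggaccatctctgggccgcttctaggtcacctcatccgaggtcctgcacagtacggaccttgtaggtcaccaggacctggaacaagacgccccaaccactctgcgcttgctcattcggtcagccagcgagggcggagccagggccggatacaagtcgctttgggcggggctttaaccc
The Top2a, Cdc20 and Kif11 windows held both motifs, and that of Mad2l1 held neither, as in 7 of the 34 genes with a window. The RefSeq start of Mad2l1 lies 169 bases from the outermost start in GENCODE M21, which is outside the window searched. Those of Top2a, Cdc20 and Kif11 lie 0, 9 and 21 bases from the outermost GENCODE start.

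At passage 20, 23 of the 39 genes (59.0%) were higher and 5 (12.8%) lower in the quasi-likelihood test of edgeR (Benjamini-Hochberg adjusted p under 0.05), and 11 did not pass. Among all genes tested, 37% were called higher and 37.3% lower, 74.3% in all, beside 71.8% of the mitotic genes. The 5 lower genes were Mad2l1, Nuf2, Foxm1, Kif11 and Pttg1. Log2 fold changes ran from -0.79 to 0.89 with a median of 0.25 and an SD of 0.39, where all genes had a median of -0.01 and an SD of 1.21. By more than 1.5-fold, 9 genes (23.1%) rose and 1 (2.56%) fell, where the shares of all genes were 22.9% and 24%. None passed 2-fold in either direction, where 13.4% of all genes rose and 14.3% fell by that much. The libraries of both passages did not overlap for 24 genes in the higher and 5 in the lower direction, where 38.3% and 39.3% of all genes were so separated (77.5% together).

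The directions depend on the scaling. TMM factors, which correct for a shift in composition, were 1.12 to 1.13 at passage 3 and 0.873 to 0.917 at passage 20. With library sizes only, the all-gene median fell on the log2 scale from -0.01 to -0.34, and 29.9% rather than 49.8% of all calls were higher. The mitotic genes then split into 13 higher, 14 lower and 12 not passing. Their calls were thus near an even split, where 29.9% of all calls were higher. Their median of -0.08 still lay above the all-gene median of -0.34. Of the 23 higher genes, 13 stayed higher, 9 did not pass and Kif20a was lower. All 5 lower genes stayed lower. Of the 11 that did not pass, 8 were then called lower: Plk1, Incenp, Bub3, Cdc20, Espl1, Cenpe, Cenpf and Mki67. The 39 genes together took 0.379% ± 0.0129 of all counts at passage 3 and 0.381% ± 0.0154 at passage 20 (SD, n = 3 each; two-sided exact permutation test, p = 0.7, where 0.1 is the smallest possible). Their summed TMM-normalised level was 3381 ± 94.98 and 4280 ± 235 CPM, 1.27-fold higher at passage 20. The 13 genes higher under both scalings were Aurka, Aurkb, Cdca8, Bub1, Bub1b, Fzr1, Kif15, Kif18a, Cenpa, Tpx2, Anln, Top2a and Mybl2. Unless said otherwise, levels below are TMM-normalised CPM, listed for replicates 1, 2 and 3, and changes are on that scale.

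**Figure D1:**
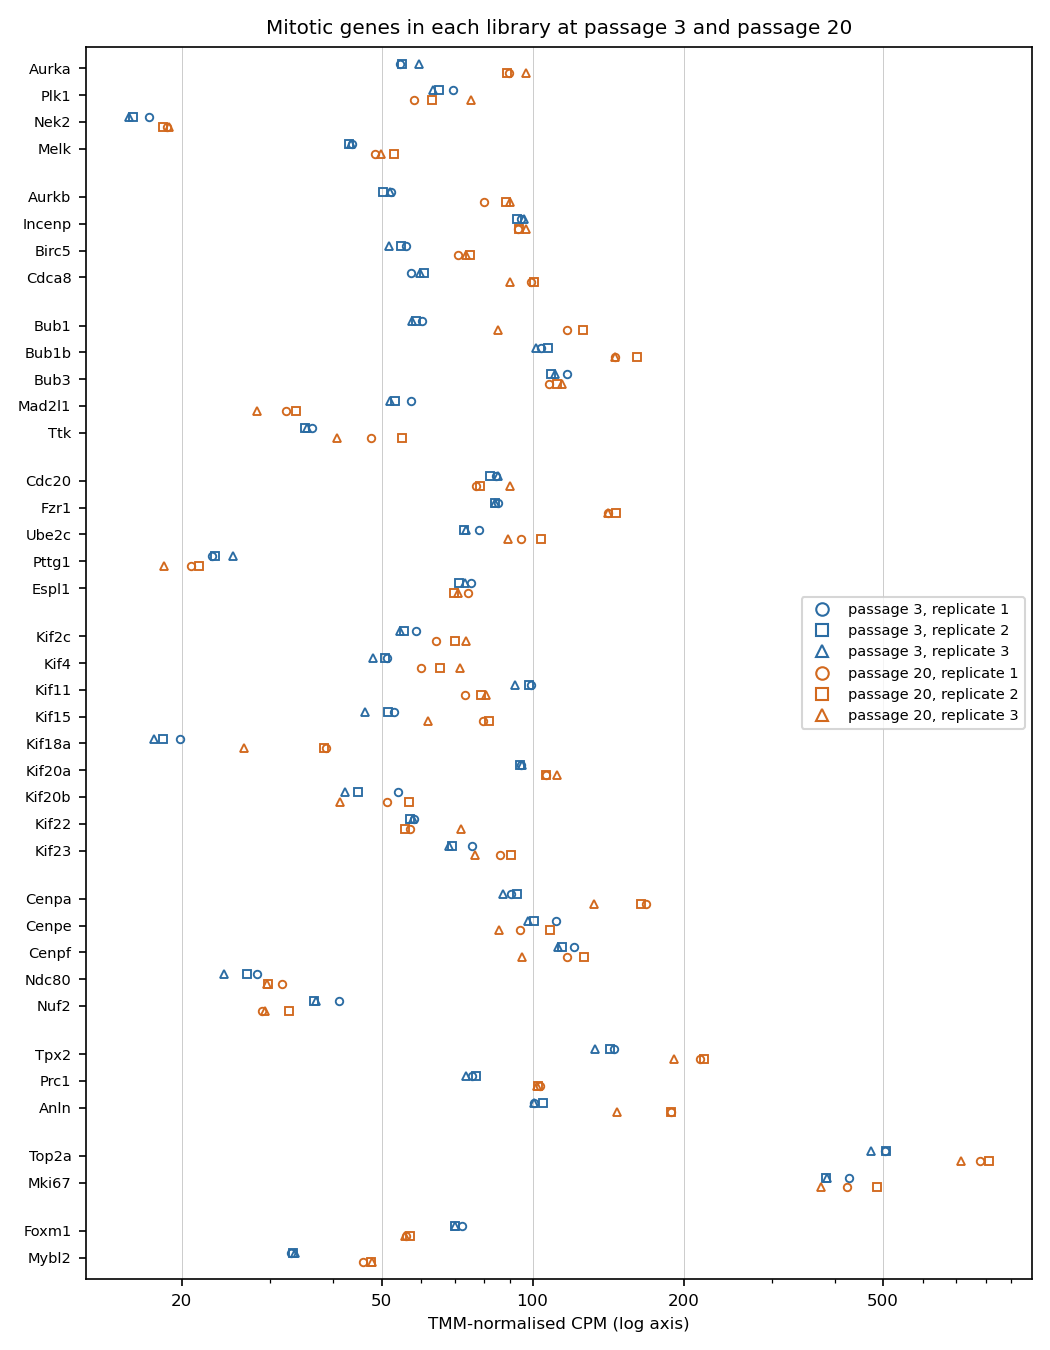
Levels of the 39 genes in each of the 6 libraries, with TMM-normalised CPM on a log axis and genes grouped by class. Each point is 1 library, colours mark the passage and shapes the replicate. Top2a and Mki67 lie above all others, and the passage 20 points of Bub1 and Kif18a spread widely because replicate 3 is the lowest of its group.

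**Figure D2:**
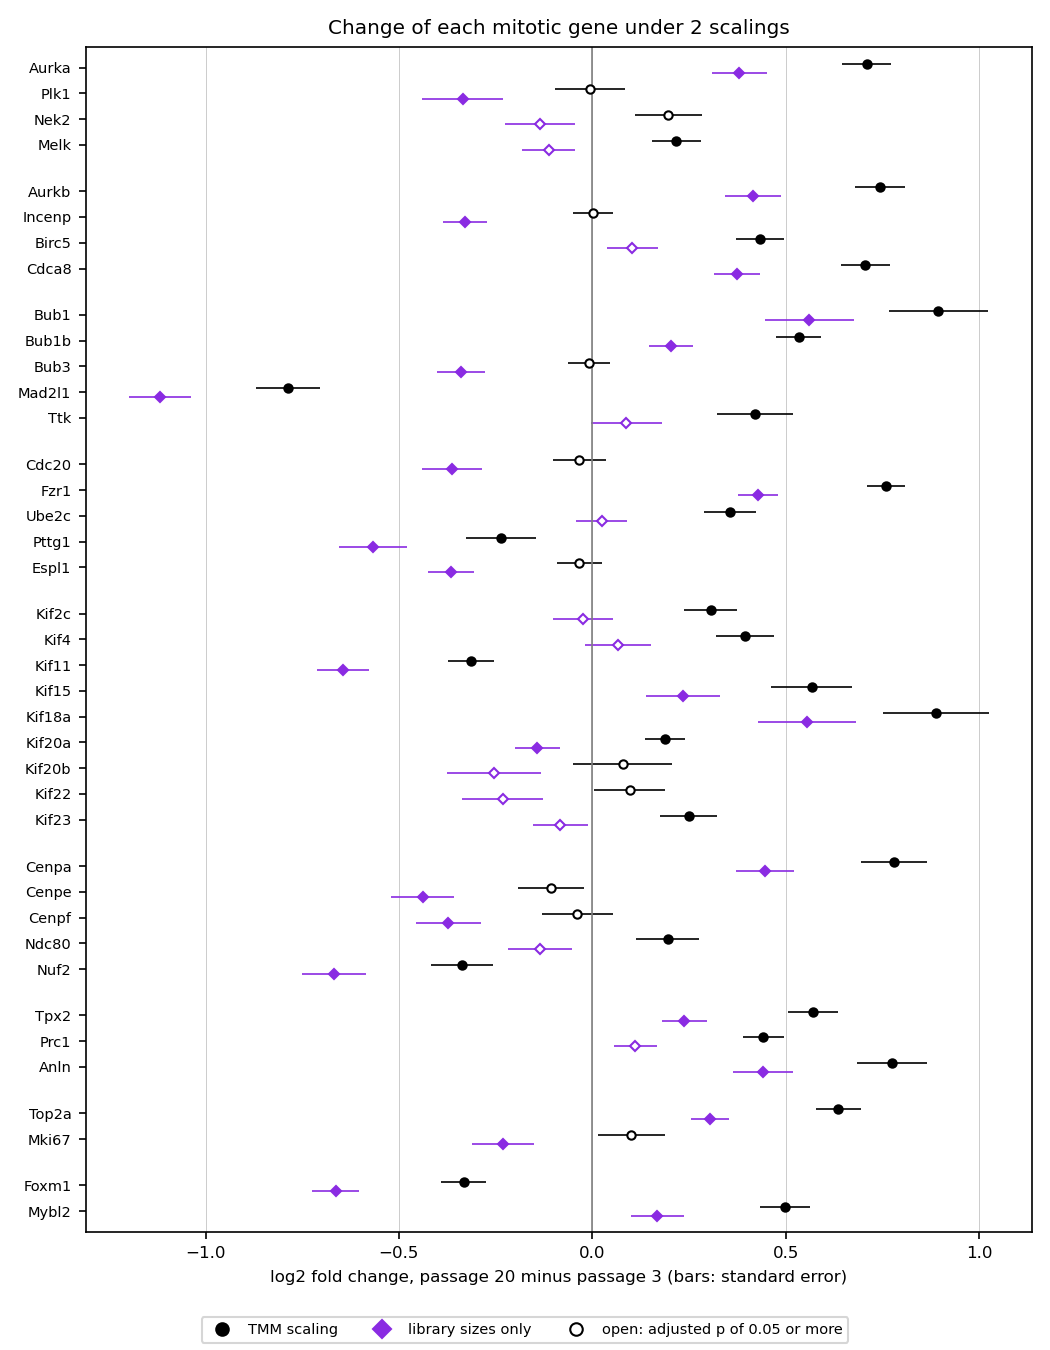
Log2 fold change at passage 20 relative to passage 3 for each gene, with TMM scaling (circles) and with library sizes only (diamonds). Bars are standard errors, and open symbols did not pass the test. With TMM scaling Bub1 and Kif18a have the largest increases, at 0.89 each, and Mad2l1 the largest decrease, at -0.79. The diamonds lie to the left of the circles.

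Of the 4 mitotic kinases, 2 rose. Aurka (ENSMUSG00000027496, chromosome 2, 172356190 to 172370535, GRCm38), the kinase of centrosomes and spindle poles, was at 54.3, 54.9 and 59.3 CPM at passage 3 and at 89.7, 89.0 and 96.9 at passage 20. Every passage 20 library lay above every passage 3 library, a 1.64-fold rise (log2 0.71, SE 0.0641, adjusted p = 1.9e-06). Melk, a kinase of proliferating cells, was at 43.6, 43.0 and 43.4 CPM and then at 48.5, 52.9 and 49.8. The groups did not overlap, and the rise was 1.16-fold (adjusted p = 0.00968), lost with library sizes only, where the log2 change was -0.11. Plk1, which drives mitotic entry and spindle assembly, was at 69.4, 65.0 and 63.5 CPM and then at 58.0, 63.0 and 75.5. Its groups overlapped, and the log2 change of -0.01 had a 95% interval of -0.21 to 0.19 (adjusted p = 0.954). Without passage 20 replicate 3, its highest library, Plk1 was called lower, with a log2 change of -0.14 (adjusted p = 0.0428). Nek2, a kinase of centrosome separation, averaged 16.3 and 18.6 CPM in groups that did not overlap, and did not pass (adjusted p = 0.0595).

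The chromosomal passenger complex, which corrects faulty attachments at the centromere and later guides cytokinesis, had 3 of 4 genes higher. Its kinase Aurkb (ENSMUSG00000020897, chromosome 11, 69045647 to 69051664) was at 52.3, 50.3 and 51.9 CPM at passage 3 and at 80.0, 88.4 and 90.2 at passage 20. The rise was 1.68-fold (log2 0.74, SE 0.0648, adjusted p = 1.41e-06). Cdca8, which encodes borealin, was at 57.2, 60.7 and 59.7 CPM and then at 99.2, 101 and 90.0, a 1.63-fold rise (adjusted p = 1.84e-06). Cdca8 shares 232 exon bases with a gene on the other strand, and the strand setting of the counts is not given, so its counts are uncertain. Birc5, which encodes survivin, rose 1.35-fold (adjusted p = 6.67e-05), a call lost with library sizes only. The scaffold Incenp was at 94.7, 93.1 and 96.2 CPM and then at 93.4, 93.8 and 97.1, so its groups overlapped. Its log2 change was 0.00, with an interval of -0.11 to 0.12 (adjusted p = 0.98), and it was -0.33 with library sizes only.

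Members of the spindle assembly checkpoint moved in opposite directions. Bub1 (ENSMUSG00000027379, chromosome 2, 127801122 to 127831865), the kinase that recruits checkpoint proteins to kinetochores, was at 60.3, 58.5 and 57.5 CPM at passage 3 and at 117, 126 and 85.3 at passage 20. Replicate 3 was well below the other passage 20 libraries yet above all of passage 3, and the rise was 1.86-fold (log2 0.89, SE 0.129, adjusted p = 0.000239). Without that library the log2 change was 1.03. Mad2l1 (ENSMUSG00000029910, chromosome 6, 66535390 to 66547220), which encodes MAD2, the inhibitor of CDC20, was at 57.4, 53.3 and 51.9 CPM and then at 32.3, 33.8 and 28.2. Every passage 20 library lay below every passage 3 library, a 1.72-fold fall (log2 -0.79, SE 0.0818, adjusted p = 5.92e-06), and the log2 change was -1.12 with library sizes only. Bub1b, which encodes BUBR1, rose 1.45-fold (adjusted p = 7.65e-06). Ttk, the checkpoint kinase MPS1, rose 1.34-fold (adjusted p = 0.00232), a call lost with library sizes only. Bub3, the partner of both BUB proteins, was at 117, 109 and 111 CPM and then at 108, 112 and 115, with a log2 change of -0.01 and an interval of -0.13 to 0.11 (adjusted p = 0.886). With library sizes only, Bub3 was called lower (log2 -0.34, adjusted p = 0.000376).

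The activators, targets and enzymes around the anaphase-promoting complex were mixed, with 2 of 5 higher and 1 lower. Fzr1 (ENSMUSG00000020235, chromosome 10, 81366222 to 81378516) encodes CDH1, which activates the complex at mitotic exit and in G1. Fzr1 was at 85.2, 84.2 and 84.2 CPM at passage 3 and at 141, 147 and 141 at passage 20, a 1.69-fold rise between tight groups (log2 0.76, SE 0.0502, adjusted p = 1.51e-07). Cdc20 (ENSMUSG00000006398, chromosome 4, 118432901 to 118437352), the activator used at anaphase, was at 84.4, 82.4 and 85.4 CPM and then at 77.2, 78.6 and 90.4. Its groups overlapped because passage 20 replicate 3 was the highest library, and the log2 change was -0.03 with an interval of -0.18 to 0.12 (adjusted p = 0.668). Without that library Cdc20 was called lower at -0.13 (adjusted p = 0.0336). Ube2c, the ubiquitin-conjugating enzyme of the complex, was at 78.2, 73.2 and 73.7 CPM and then at 95.1, 104 and 89.2, a 1.28-fold rise (adjusted p = 0.000573) lost with library sizes only. Pttg1, which encodes securin, fell 1.18-fold from 23.8 ± 1.25 to 20.3 ± 1.65 CPM (SD, n = 3; edgeR adjusted p = 0.0333), and was not called without passage 20 replicate 3 (adjusted p = 0.0553). Espl1, which encodes separase, averaged 73.4 and 71.7 CPM (adjusted p = 0.61).

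Among the 9 kinesins, 6 rose, 1 fell and 2 did not pass. Kif18a (ENSMUSG00000027115, chromosome 2, 109280738 to 109341747), which damps chromosome movement at metaphase, was at 19.8, 18.4 and 17.6 CPM at passage 3 and at 38.7, 38.3 and 26.6 at passage 20. The rise was 1.85-fold (log2 0.89, SE 0.137, adjusted p = 0.000212), and the log2 change was 1.04 without passage 20 replicate 3. Kif15 and Kif11 both push spindle poles apart, and moved in opposite directions. Kif15 was at 52.9, 51.5 and 46.4 CPM and then at 79.7, 82.0 and 62.0, a 1.48-fold rise (adjusted p = 0.000631). Kif11 (ENSMUSG00000012443, chromosome 19, 37376403 to 37421859), given by library because its values had been seen to oppose those of Kif15, was at 99.3, 98.2 and 92.4 CPM and then at 73.5, 78.9 and 80.6, a 1.24-fold fall with no overlap (adjusted p = 0.000652). Kif20b, which acts in cytokinesis, was at 54.0, 44.9 and 42.3 CPM and then at 51.3, 56.8 and 41.3, overlapping throughout (log2 0.08, interval -0.21 to 0.37, adjusted p = 0.592). Smaller rises were found for Kif4 (1.32-fold), Kif2c (1.24-fold), Kif23 (1.19-fold) and Kif20a (1.14-fold), with adjusted p from 0.000574 to 0.00981. None of these 4 was called higher with library sizes only, and Kif20a shares 1271 exon bases with Cdc23 on the other strand, which makes its counts uncertain. Kif22 averaged 57.7 and 61.5 CPM (adjusted p = 0.356). Counts of Kif4, Prc1 and Cdc20 are uncertain as well, since these genes share 832, 911 and 53 exon bases with Pdzd11, Rccd1 and Elovl1 on the other strand.

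Centromere and kinetochore genes included 2 higher and 1 lower of 5. Cenpa (ENSMUSG00000029177, chromosome 5, 30666777 to 30674830), the histone H3 variant that marks centromeres, was at 90.4, 93.1 and 87.3 CPM at passage 3 and at 168, 165 and 133 at passage 20. It rose 1.72-fold (log2 0.78, SE 0.0846, adjusted p = 1.26e-05). Ndc80 and Nuf2 encode partners that bind microtubules as 1 complex. Nuf2 was at 41.2, 36.7 and 37.1 CPM and then at 29.0, 32.8 and 29.3, a 1.26-fold fall without overlap (adjusted p = 0.00278). Ndc80 rose 1.14-fold (adjusted p = 0.0495) and was not called with DESeq2 (adjusted p = 0.186) or with library sizes only. Cenpf, a large coat protein of the kinetochore, was at 121, 114 and 113 CPM and then at 117, 127 and 95.4, with a log2 change of -0.04 and an interval of -0.24 to 0.17 (adjusted p = 0.718). The kinetochore motor Cenpe averaged 103 and 96.1 CPM (adjusted p = 0.276).

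All 3 genes of the spindle and cytokinesis class rose. Anln (ENSMUSG00000036777, chromosome 9, 22332012 to 22389188), which encodes the contractile ring scaffold anillin, was at 101, 105 and 101 CPM at passage 3 and at 189, 189 and 147 at passage 20, a 1.71-fold rise (log2 0.78, SE 0.0903, adjusted p = 2.98e-05). Tpx2, the activator of Aurora A on the spindle, was at 146, 143 and 133 CPM and then at 216, 219 and 191, a 1.49-fold rise (adjusted p = 1.05e-05). Prc1, which bundles the microtubules of the central spindle, rose 1.36-fold (adjusted p = 1.83e-05), a call lost with library sizes only. In both Anln and Tpx2, passage 20 replicate 3 was the lowest of its group and still above passage 3.

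The class of chromosome and proliferation genes holds the DNA-decatenating enzyme Top2a and the proliferation marker Mki67. Top2a (ENSMUSG00000020914, chromosome 11, 98992943 to 99024189) was at 505, 506 and 473 CPM at passage 3 and at 780, 813 and 714 at passage 20, a 1.55-fold rise (log2 0.64, SE 0.0581, adjusted p = 2.1e-06). Mki67 (ENSMUSG00000031004, chromosome 7, 135689784 to 135716361) was at 427, 385 and 387 CPM and then at 424, 486 and 376. Its groups overlapped, and the log2 change was 0.10 with an interval of -0.09 to 0.30 (adjusted p = 0.31). Mki67 was called higher without passage 20 replicate 3 (log2 0.17, adjusted p = 0.0121) and lower with library sizes only (log2 -0.23, adjusted p = 0.0235).

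The paired transcription factors of the late cell cycle diverged. Foxm1 (ENSMUSG00000001517, chromosome 6, 128362967 to 128376146) was at 72.3, 70.0 and 70.0 CPM at passage 3 and at 56.0, 56.9 and 55.6 at passage 20, a 1.26-fold fall (log2 -0.33, SE 0.0574, adjusted p = 0.000299). Mybl2 (ENSMUSG00000017861, chromosome 2, 163054687 to 163084688), which encodes B-Myb, was at 33.0, 33.3 and 33.7 CPM and then at 45.8, 47.5 and 47.8, a 1.41-fold rise (log2 0.50, SE 0.0635, adjusted p = 3e-05). Neither gene's groups overlapped, and both calls held with library sizes only.

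Ratios of raw counts within a library do not depend on the scaling between libraries. The 10 pairs given here were chosen after their values were seen, so they describe the data and carry no test. Bub1 had 1.09 ± 0.0306 counts per Mad2l1 count at passage 3 and 3.46 ± 0.380 at passage 20 (SD, n = 3), 3.18-fold more. For Bub1b over Mad2l1 the ratio went from 1.93 to 4.82. Fzr1 over Cdc20, the activators of the anaphase-promoting complex, went from 1.01 to 1.75. Mybl2 over Foxm1 went from 0.471 to 0.838, and Aurka over Plk1 from 0.854 to 1.41. Aurkb over Incenp went from 0.544 to 0.910, and Cenpa over Cenpf from 0.779 to 1.37. Kif15 over Kif11 went from 0.520 to 0.964, Ndc80 over Nuf2 from 0.692 to 1.00, and Top2a over Mki67 from 1.24 to 1.80. In each of these 10 pairs the passages did not overlap, which choosing pairs by their values favours.

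**Figure D3:**
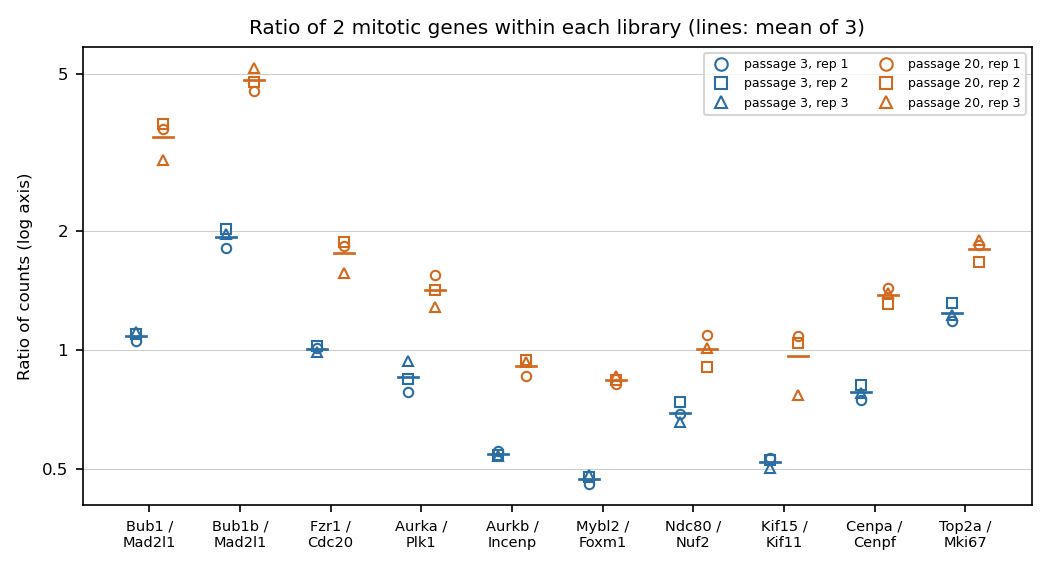
Ratio of raw counts within each library for 10 pairs of genes, on a log axis, with 1 point per library, colours for the passage and lines at the mean of 3. The pairs were chosen after their values were seen. Each pair is higher in every passage 20 library than in any passage 3 library, and Bub1 over Mad2l1 has the widest gap, 1.09 against 3.46.

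Levels between genes were compared per kilobase of exon (RPKM). Top2a was highest at both passages, at 54.9 and 85.3 RPKM. At passage 3 Cdc20 (45.0) and Mki67 (39.7) followed, and at passage 20 Tpx2 (44.6), Cdc20 (43.9) and Mki67 (42.6) lay within each other's spread. Kif18a was lowest at both passages, at 1.89 and 3.51 RPKM. Foxm1 moved from rank 20 to rank 29 and Kif11 from 18 to 26, while Anln moved from 25 to 16. Plk1 moved from rank 5 to rank 9 although its own level stayed at 30.0 ± 1.39 and 29.8 ± 4.10 RPKM (SD, n = 3). Genes of similar level lie within that spread.

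Libraries of passage 20 scattered more than those of passage 3. The median coefficient of variation of the 39 genes was 3.81% at passage 3 and 6.98% at passage 20, beside 3.95% and 7.23% for the 9977 tested genes of at least 10 CPM. Passage 20 replicate 3 was the lowest of its group for 21 genes, the highest for 13 and in the middle for 5. Its log2 distance from the mean of replicates 1 and 2 ran from -0.53 to 0.35, whereas replicates 1 and 2 differed by -0.20 to 0.09. Without it, 24 of the 39 genes were higher, 6 lower and 9 did not pass. That refit tested 15701 genes, and 49.3% of all its calls were higher. The share of all genes called in it is not given here.

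The 9 other lists of cell cycle genes place the 39 genes in their setting. Their counts stand beside 37% of all genes tested called higher and 37.3% called lower. Of 14 cyclins, CDK1 and regulators of mitotic entry, 10 were higher and 1 lower (median log2 0.32). Cdk1, the kinase that drives mitosis, rose 1.44-fold from 98.1 ± 4.27 to 141 ± 10.9 CPM (SD, n = 3; edgeR adjusted p = 2.79e-05), Ensa 1.41-fold, Ccna2 1.37-fold and Ccnb1 1.13-fold. Wee1, which inhibits CDK1, fell 1.22-fold (adjusted p = 0.00857). Of 18 condensin and cohesin genes, 14 were higher and 1 lower (median 0.27), with Ncaph2 up 1.83-fold, Ncapd2 up 1.44-fold and Stag1 down 1.25-fold. Of 21 spindle and centrosome genes, 13 were higher and 5 lower (median 0.29), with Ckap5 up 1.77-fold, Ect2 up 1.64-fold, Cenpj down 2.13-fold and Numa1 down 1.27-fold.

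Other lists had more genes lower than higher, or split. Of 27 other kinetochore subunits, 2 were higher and 10 lower (median -0.06). Few were thus higher, while the share lower was near that of all genes tested. The CENP-A chaperone Hjurp rose 2.64-fold from 315 ± 8.18 to 834 ± 126 CPM and Pmf1 rose 1.48-fold, while Mad1l1, the partner of MAD2, fell 2.17-fold (adjusted p = 5.91e-06) and Mis12 fell 1.58-fold. Of 15 subunits and regulators of the anaphase-promoting complex, 5 were higher and 7 lower (median -0.06), with Fbxo5 up 1.61-fold, Ube2s up 1.57-fold, Cdc27 down 1.54-fold and Anapc2 down 1.39-fold. Of 20 replication genes, 6 were higher and 8 lower (median -0.11), with Mcm3 up 1.18-fold, Mcm6 up 1.17-fold, Gins3 down 2.58-fold and Tyms down 1.70-fold, and Pcna did not pass (adjusted p = 0.225). Of 9 DREAM and MuvB genes, 1 was higher (E2f5, 1.38-fold) and 4 lower, among them Lin52 (1.64-fold) and Tfdp1 (1.33-fold).

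Of 17 regulators of the G1 to S step, 6 were higher and 6 lower (median -0.02). Cdt1 rose 2.09-fold, E2f1 1.59-fold and Ccnd3 1.45-fold, while Ccnd1 fell 3.57-fold and Ccne1 2.20-fold. Of 10 CDK inhibitors and pocket proteins, 6 were higher and 3 lower (median 0.37). Cdkn1a, which encodes the inhibitor p21, rose 3.51-fold from 235 ± 13.5 to 824 ± 32.2 CPM (SD, n = 3; edgeR adjusted p = 8.64e-10) and Cdkn1b rose 2.84-fold, while Rbl1 fell 1.95-fold and Cdkn1c fell 1.47-fold. Ccnd1, Ccnd3, Ccna2, E2f5, Ncaph2, Ube2s, Mis12 and Numa1 overlap other genes, and their counts are uncertain. The lists also depend on the scaling. With library sizes only, condensin and cohesin had 4 genes higher and 7 lower, and the cyclin and CDK1 list 3 and 4. The spindle and centrosome list had 8 and 8, and the CDK inhibitors 3 and 3. Of all calls, 29.9% were then higher, against 49.8% with TMM factors.

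**Figure D4:**
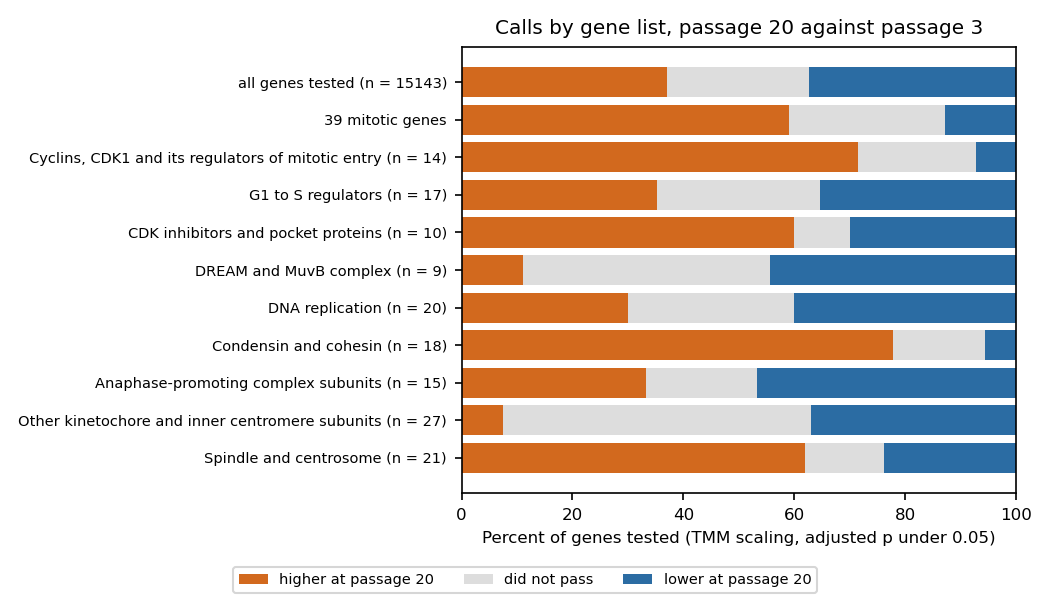
Percent of genes tested that were higher, did not pass or were lower at passage 20 with TMM scaling, as stacked bars for all genes tested, the 39 mitotic genes and the 9 other cell cycle lists. Condensin and cohesin has 14 higher and 1 lower of 18, and the other kinetochore subunits 2 higher and 10 lower of 27. Among all genes tested, 37% were higher and 37.3% lower.

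A promoter window from 250 bases before to 50 after the RefSeq start was held for 34 of the 39 genes, all but Aurkb, Incenp, Kif20a, Tpx2 and Foxm1. The CHR letters TTTGAA stood on either strand in 23 of the 34 (67.6%), against 14.1% of 10975 tested genes with a window and 20.2% of 27025 genes in all. CCAAT stood in 22 (64.7%), against 42.8% and 41.1%. Both stood in 18 (52.9%), against 7.13% and 8.97%. A match describes the window only, and a CHR and a CCAAT match can share bases, as they do by 1 base in Cdca8. Of 29 CHR matches, 23, in 21 genes, lay within 50 bases of the start. By call, the CHR letters stood in 14 of 20 higher genes, 8 of 10 that did not pass and 1 of 4 lower genes, which is Kif11. The 7 windows with neither motif were those of Melk, Birc5, Kif18a and Mybl2, which were higher, and of Mad2l1, Nuf2 and Pttg1, which were lower. In Mad2l1, Pttg1 and Mybl2 the outermost GENCODE start lies outside the window, 169, 270 and 52 bases from the RefSeq start. Sequence around those starts was thus not fully searched. The same holds for Cdca8, Kif2c and Kif4, at 2394, 3867 and 328 bases.

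**Figure D5:**
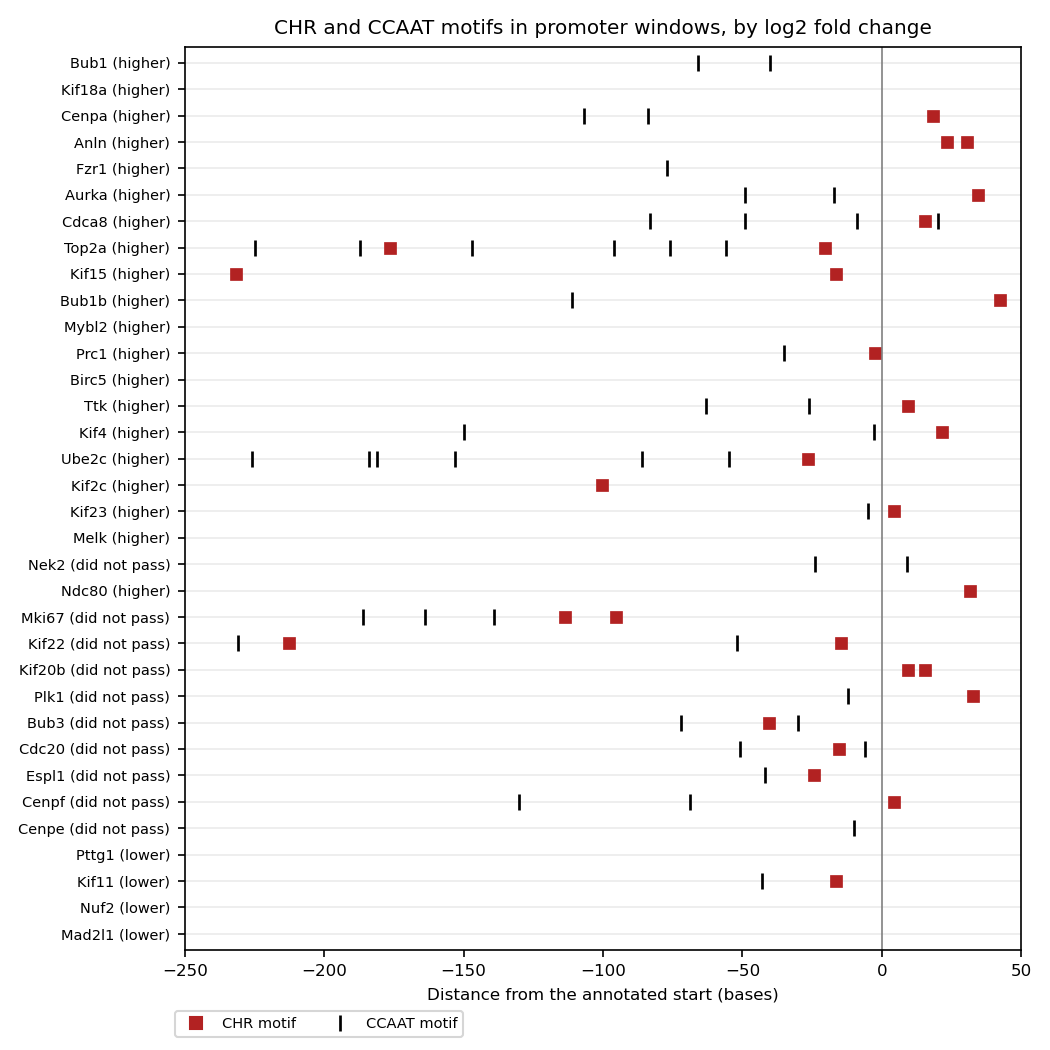
Position of CHR (TTTGAA) and CCAAT matches on either strand relative to the RefSeq start, in bases, for the 34 genes with a window, 1 row per gene. Most CHR matches lie within 50 bases of the start, and 7 rows, Mad2l1 among them, are empty.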

How the data were processed

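For each of the 6 RNA-seq libraries the authors deposited counts of reads per gene as whole numbers, and also deposited values on a log2 scale whose transformation is not stated. Per the submitters' processing notes, HISAT2 2.0.5, SAMtools, HTSeq and DESeq2 were used with the build GRCm38. What each tool did, which annotation was counted and whether strand was used are not stated in those notes, so reads of overlapping genes are uncertain. Gene names, positions and exon lengths came from GENCODE M21 on GRCm38, and promoter windows from RefSeq on GRCm38.p6.

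Counts were filtered with filterByExpr, scaled with TMM factors and tested over all genes with edgeR 4.0.16 (robust quasi-likelihood test, R 4.3.3). Calls needed a Benjamini-Hochberg adjusted p under 0.05. Levels are TMM-normalised CPM, read counts per 1000000, and RPKM values are CPM per kilobase of merged exons. Standard errors are the log2 fold change divided by the root of edgeR's F statistic, and intervals use its degrees of freedom at 95% confidence. Counts of the 39 genes ranged from 185 to 9378 reads per gene and library. The test was checked on simulated data, where the share of false calls in the run kept came out above the threshold of 0.05. The limit set for that check was raised after the run exceeded it. Adjusted p-values may thus be too low for any call, and calls just under the threshold are the least secure. The alternatives were RLE factors, library sizes only, DESeq2 1.42.0, a minimum of 1 CPM in 3 libraries, no filter on low counts, a replicate block, limma 3.58.1 on the deposited log2 values, a threshold of 0.01, and each library left out in turn.

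The genes and lists were chosen with earlier results of these data known. All 39 are named. Values in each library are given for up to 3 genes per class, namely the 2 with the largest absolute log2 fold change and the one with the largest adjusted p among those that did not pass. Kif11 was added after its values were seen. Each other cell cycle list is represented by up to 2 genes per direction with the smallest adjusted p, and 8 cell cycle genes, some of them also chosen that way, were named whatever their result. A planned search for degradation motifs in proteins was not made, because no protein table was used here.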

Additional observations from a re-analysis of the deposited data

How the results depend on the processing

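With library sizes only, 3529 of the 15143 genes tested were higher. Of all calls 29.9% were higher, so most were lower, and the all-gene median log2 fold change was -0.34. Of the 39 mitotic genes 13 were higher and 14 lower, and their median log2 fold change was -0.083. Melk (-0.11), Incenp (-0.33), Kif2c (-0.024), Kif20a (-0.14), Kif23 (-0.08), Ndc80 (-0.14) and Mki67 (-0.23) then changed sign, as did Nek2 (-0.13), Kif20b (-0.25) and Kif22 (-0.23), which passed under neither scaling. Under that scaling the counts higher and lower were 3 and 4 for cyclins and CDK1, 3 and 11 for G1 to S regulators, 0 and 7 for DREAM and MuvB genes, 0 and 14 for replication, 4 and 7 for condensin and cohesin, and 8 and 8 for spindle and centrosome genes. They were 3 and 3 for CDK inhibitors, 3 and 10 for subunits of the anaphase-promoting complex, and 2 and 22 for other kinetochore subunits. These counts stand beside 29.9% of all calls higher under that scaling, not beside the shares called with TMM factors. Without TMM factors all genes shift together, by the construction of that alternative. Condensin and cohesin had 9 genes higher and 2 lower with no low-count filter, where the cause was not tested. With DESeq2 that list had 10 higher and 1 lower, and the cause was again not tested. At a threshold of 0.01 it had 9 higher, by the stricter cut on the same edgeR fit.

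The mitotic genes had 23 higher and 5 lower with RLE factors and with at least 1 CPM in 3 libraries, 22 and 4 with DESeq2 and at a threshold of 0.01, 20 and 5 with no low-count filter, and 24 and 5 with limma on the deposited log2 values. Among all calls, 49.1% (no low-count filter) to 50.5% (DESeq2) were higher in these settings and in the omissions that follow. Leaving out 1 library in turn gave 21 to 24 higher and 4 to 6 lower, with medians from 0.21 to 0.28. The same call was kept each time by 32 of the 39 genes. The exceptions were Plk1, Cdc20, Pttg1, Kif23, Cenpe, Ndc80 and Mki67. Kif23 was not called by edgeR without passage 3 replicate 2 (adjusted p = 0.0546) or 3 (adjusted p = 0.0593), Pttg1 not without either of these (0.0538 and 0.118), and Ndc80 in 5 of 6 omissions (0.0518 to 0.24). Cenpe was called lower without passage 20 replicate 2 (adjusted p = 0.0485). Melk and Kif20a were not called with no low-count filter (0.0626 and 0.0627). Over the 6 omissions condensin and cohesin had 9 to 16 genes higher and 1 to 2 lower, and other kinetochore subunits 2 to 5 higher, both highest without passage 20 replicate 3.

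With the replicate number as a block, 22 mitotic genes were higher and 4 lower, with a median of 0.25, among 5521 and 5582 genes in all, and condensin and cohesin had 2 genes lower. Pttg1 (adjusted p = 0.0571) and Ndc80 (adjusted p = 0.0587) were then not called by edgeR. Deviations of same-numbered libraries correlated at 0.014, -0.027 and 0.045 across genes. With 3 libraries per passage, these values cannot show whether the numbers pair the libraries, and the labels do not say. At 185 or more reads per gene and library, depth limits the genes with the fewest reads most, Nek2 and Pttg1.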
